A study of Arabidopsis thaliana with 57 samples.

Results

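The Aux/IAA genes described here were 10 genes of the auxin response pathway in rosette leaves of Arabidopsis thaliana: IAA1 (AT4G14560), IAA2 (AT3G23030), IAA3 (AT1G04240), IAA4 (AT5G43700), IAA6 (AT1G52830), IAA7 (AT3G23050), IAA14 (AT4G14550), IAA17 (AT1G04250), IAA19 (AT3G15540) and IAA29 (AT4G32280). They were taken by a list of gene IDs and were 10 of the 28775 genes in the expression table. All 10 passed the filter on low values and so were among the 19010 genes tested, although IAA6 was weakly expressed, with a mean of 3.91 on the deposited log2 scale.

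Every plant was wild type Col0, the standard laboratory accession, and every rosette was harvested at day 18, 6 h after the lights came on. Standard growth meant days of 22 °C with light of 120 µmol m-2 s-1 and nights of 18 °C, and the control group stayed in it. The stresses, named as in the labels, were Cold (12 °C and 8 °C at 80 µmol m-2 s-1), Cold-HL (the same temperatures at 200 µmol m-2 s-1), HL (high light, 350 µmol m-2 s-1), Heat (27 °C and 23 °C), Heat-HL, Drought (water withheld), Heat-drought and Humidity (trays sealed with surplus water). In the end-point setup the stress started on day 15 and ran up to harvest. In the recovery setup it started on day 12, lasted 3 days and was followed by 3 days of standard growth. There were 3 libraries in each of 17 groups, and the single control group, which belongs to the recovery setup, served every comparison with a control, so those comparisons share its libraries.

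Aux/IAA proteins are short-lived repressors. They bind auxin response factors (ARFs) on DNA and recruit the corepressor TOPLESS; auxin brings them together with the TIR1/AFB receptors, which mark them for destruction. Many Aux/IAA genes are themselves switched on by auxin within minutes, so that the pathway makes its own brake, and in rosette leaves their transcripts go with cell expansion, shade responses and the time of day. Transcript levels say nothing on the amount of the proteins, which was not measured.

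Promoters of 5 members are shown. IAA29 and IAA19 had the deepest falls, and IAA2 and IAA7 are neighbours on chromosome 3 that moved apart under drought. IAA6 followed IAA19 most closely relative to the library median (explained below), but none of its falls was called on the deposited scale. Each line gives the 300 bases before the RefSeq gene start (assembly TAIR10.1, matched by gene ID for all 10 members), 5′ to 3′ on the gene's own strand. Capitals mark matches, on either strand, to the auxin response elements TGTCTC and TGTCGG, to the G-box CACGTG and to the ABRE core ACGTGG, which overlaps the G-box where both occur. The windows are chr3:5263701-5264000 (plus strand) for IAA19, chr1:19673653-19673952 (minus strand) for IAA6, chr4:15583032-15583331 (plus strand) for IAA29, chr3:8194306-8194605 (plus strand) for IAA7 and chr3:8182096-8182395 (minus strand) for IAA2.
IAA19: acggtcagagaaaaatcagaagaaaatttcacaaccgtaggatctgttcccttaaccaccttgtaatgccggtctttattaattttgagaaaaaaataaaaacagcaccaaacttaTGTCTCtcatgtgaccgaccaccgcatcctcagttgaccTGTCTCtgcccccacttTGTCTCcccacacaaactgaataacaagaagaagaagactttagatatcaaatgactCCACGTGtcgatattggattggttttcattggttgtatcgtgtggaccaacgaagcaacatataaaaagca
IAA6: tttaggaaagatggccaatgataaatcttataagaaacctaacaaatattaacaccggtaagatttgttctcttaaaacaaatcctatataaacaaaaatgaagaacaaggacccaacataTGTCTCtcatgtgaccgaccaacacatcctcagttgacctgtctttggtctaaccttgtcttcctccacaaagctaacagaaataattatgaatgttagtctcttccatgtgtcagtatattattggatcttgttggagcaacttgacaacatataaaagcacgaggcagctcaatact
IAA29: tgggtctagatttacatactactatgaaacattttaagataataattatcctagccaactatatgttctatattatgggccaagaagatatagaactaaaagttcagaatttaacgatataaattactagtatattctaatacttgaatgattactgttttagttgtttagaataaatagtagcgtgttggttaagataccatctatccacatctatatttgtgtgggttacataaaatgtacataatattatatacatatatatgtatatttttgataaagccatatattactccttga
IAA7: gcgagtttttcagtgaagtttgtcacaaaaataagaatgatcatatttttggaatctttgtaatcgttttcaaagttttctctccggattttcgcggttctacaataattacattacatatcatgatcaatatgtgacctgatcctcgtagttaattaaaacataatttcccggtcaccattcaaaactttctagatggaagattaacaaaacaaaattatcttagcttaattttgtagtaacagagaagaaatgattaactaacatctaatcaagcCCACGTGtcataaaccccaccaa
IAA2: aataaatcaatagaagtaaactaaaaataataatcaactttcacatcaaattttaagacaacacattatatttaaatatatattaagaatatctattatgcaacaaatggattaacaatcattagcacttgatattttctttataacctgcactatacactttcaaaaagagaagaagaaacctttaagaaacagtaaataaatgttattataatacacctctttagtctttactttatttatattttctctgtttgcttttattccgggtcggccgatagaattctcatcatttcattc

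The IAA19 window held TGTCTC 3 times, starting 184, 145 and 128 bases before the gene, and a G-box at 70 to 65. IAA6 held TGTCTC at 179 to 174. The window of IAA7 had a G-box at 22 to 17, and those of IAA29 and IAA2 had no match to these letters. Over the 10 members, TGTCTC was in 4 windows (IAA1, IAA3, IAA6 and IAA19), against 12.7% of 18713 windows of tested genes. TGTCGG was in 1 (IAA1), against 5.48%. CACGTG was in 2 (IAA7 and IAA19), against 8.13%, and ACGTGG in the same 2, against 9.88%. The IAA6 and IAA19 windows also shared an unbroken run of 23 bases at nearly the same place, from 181 to 159 and from 186 to 164 before the gene, and TGTCTC lies inside it. Among the 45 pairs of members the next longest shared run was 13 bases and the median was 9 bases. These matches describe the letters and are not shown to be bound.

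Levels are given as log2 relative to the median of the same library, that is the deposited rlog value (a regularized log2 count) minus the median of the 19010 tested genes in that library. This matters because the library medians themselves moved: against the control they were 0.73 higher in Heat-drought, 0.54 in Drought, 0.51 in Cold-HL, 0.34 in Cold, 0.13 in HL and 0.10 in Heat-HL, and 0.12 and 0.10 in the recoveries from Drought and HL. Where a call of a member against the control at the end of stress changes when the deposited values are used without this subtraction, both values are given. Levels are not per transcript length and are compared only within a gene. A change was called at a Benjamini-Hochberg adjusted p under 0.05 in limma, adjusted over all tested genes in each comparison.

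Replicates correlated across genes with r of 0.980 to 0.998. Replicate 3 of the Heat-drought end-point had the lowest correlations with its group, 0.980 and 0.986 against 0.995 between the other two, and the highest rlog value of any gene in that group, 27.0 against up to 18.1. The leaf label was checked on 5 mesophyll markers (RBCS1A, LHCB1.1, CA1, RCA and GLK1), whose mean level was 5.70 or more above the library median in every library, and 5 of 7 root markers and 3 of 4 flower markers were under the filter. Replicate 2 of the Cold-HL recovery stood apart: its mean mesophyll marker level was 5.70, against up to 8.32 in that group, and IAA7 was 2.22 there but 2.85 and 2.81 in replicates 1 and 3. Nothing in the labels says that replicates were separate plants or trays, so the p-values measure the spread between these samples only. The count of reads behind each value is unknown.

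At the end of stress lower calls of the Aux/IAA genes outnumbered higher ones in Cold, Cold-HL, Drought, Heat-drought and HL, relative to the library median, and in Heat and Heat-HL 1 of 20 pairs was called. Over 10 genes and 8 stresses, 28 of 80 pairs were lower and 4 were higher, against 17.9% and 12.9% of all gene and stress pairs. On the deposited scale the split was 17 lower and 17 higher, where 3.67% and 32.4% of all pairs were called. The calls shared by both scales were 17 lower and 4 higher. So the lower calls of IAA29 and IAA19 and the higher calls of IAA2 did not depend on the scale, while those of IAA6 did.

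**Figure D1:**
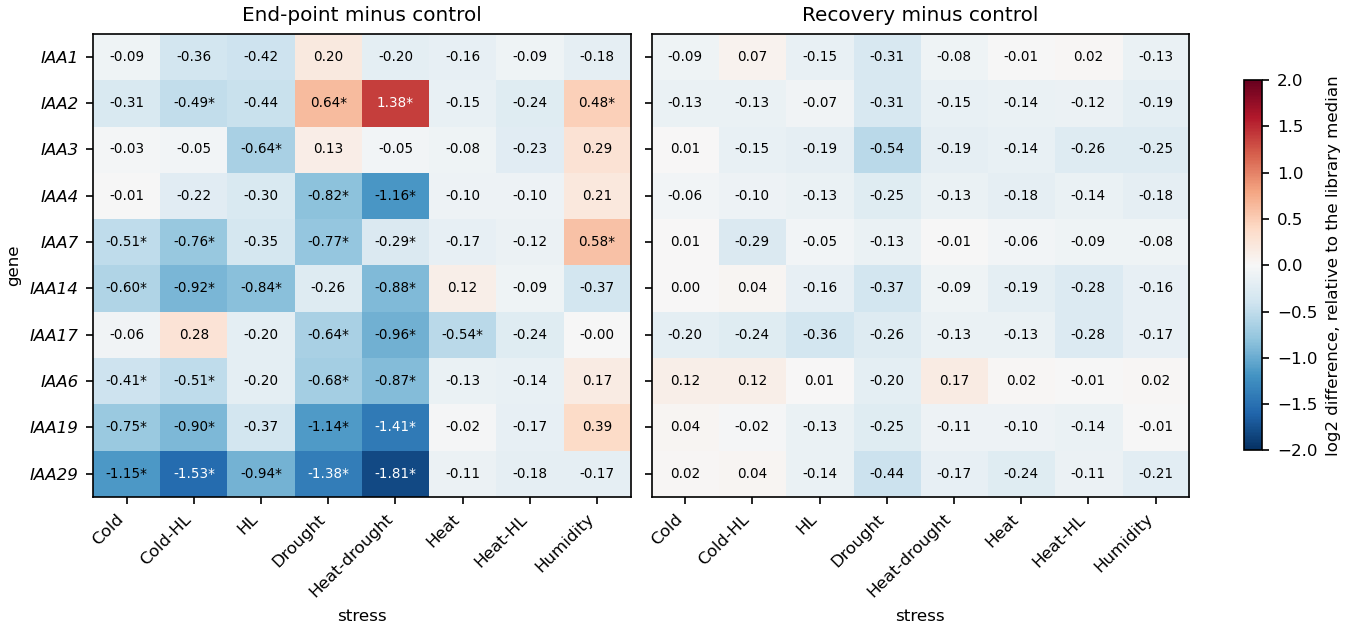
Difference from the control in log2 relative to the library median for the 10 genes (rows) and 8 stresses (columns), at the end of stress on the left and after recovery on the right; asterisks mark adjusted p under 0.05 (limma). The left panel holds 28 lower and 4 higher calls, the right panel none.

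By stress, the counts were as follows. In Cold 5 members fell (21.7% of tested genes were called lower) and 0 rose (18.3% higher), and in Cold-HL 6 fell (29.4%) and 0 rose (23.3%). In Drought 6 fell (42.2%) and 1 rose (25.3%), and in Heat-drought 7 fell (46.5%) and 1 rose (32.2%). As deposited, 2 were lower and 3 higher in Cold, 4 and 3 in Cold-HL, 4 and 3 in Drought, and 3 and 4 in Heat-drought. The shares of all genes called in these 4 stresses were large. In HL 3 members fell, where 0.689% of tested genes were called lower, and the libraries of 8 of 10 members lay wholly below the control, against 14.6% of tested genes. In Heat 1 fell (0.431%) and 0 rose (0.368%), in Heat-HL 0 were called (0.158% of genes higher and 0.0842% lower), and in Humidity 2 rose (3.58%) and 0 fell (2.31%). As deposited, the counts were unchanged in HL, Heat and Heat-HL, and 4 rose in Humidity. At an unadjusted p under 0.05 in limma, Heat-HL had 1 member lower (IAA3, 4.64% of tested genes) and 0 higher (3.69%), and Cold-HL had 1 higher (IAA17, 25.0%). The unadjusted counts in the direction with no call stayed at 0 in Cold (21.4% of tested genes higher), HL (6.32% higher), Heat (4.93% higher) and Humidity (8.83% lower). The median difference of the 10 members was -0.36 in Cold, -0.50 in Cold-HL, -0.66 in Drought, -0.87 in Heat-drought and -0.40 in HL, whereas that of all tested genes lay between -0.15 and -0.02 in these comparisons. As deposited, the members' medians in the same order were -0.02, 0.01, -0.12, -0.14 and -0.27. Without the subtraction the median of all tested genes shifts by the same amount, so its distance from the members' median is equal on both scales.

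Relative to the library median, IAA29 and IAA19 fell most evenly. IAA6 was called lower in the same stresses as IAA19, but its deposited values moved little and none of its falls was called as deposited. IAA29 is a light- and shade-responsive gene and a known target of the PIF growth factors, IAA19 (MSG2) acts in bending and elongation of the hypocotyl, and IAA6 (SHY1) is its close relative. In the control the IAA29 level was -1.64, -1.21 and -0.94 in the 3 libraries. It stood at -2.76, -2.23 and -2.26 in Cold and at -2.80, -2.87 and -2.72 in Cold-HL. In Drought it was -2.84, -2.28 and -2.80, and in Heat-drought -2.97, -3.15 and -3.10. None of these 12 libraries reached the control range, and the Heat-drought libraries were the lowest of the 51.

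IAA29 fell 2.23-fold in Cold (-1.15 ± 0.18, log2 difference ± SE, adjusted p = 4.5e-06, limma) and 2.89-fold in Cold-HL (-1.53 ± 0.18, adjusted p = 6.4e-09). The fall was 2.60-fold in Drought (-1.38, adjusted p = 2.4e-08) and 3.51-fold in Heat-drought (-1.81, adjusted p = 1.5e-11). In HL, at -2.41, -2.03 and -2.17, it was 1.92-fold lower than the control (-0.94 ± 0.18, adjusted p = 0.0056). That call was lost without control replicate 2 (-0.92) or control replicate 3 (-0.78, adjusted p = 0.096). IAA29 was thus lower in 5 of 8 stresses on both scales, and in Heat, Heat-HL and Humidity its libraries overlapped the control.

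The IAA19 level was -1.34, -1.18 and -1.10 in the control and -2.47, -2.67 and -2.72 in Heat-drought. It was -2.34, -2.09 and -2.60 in Drought, -2.02, -1.93 and -1.91 in Cold, and -2.21, -2.18 and -1.94 in Cold-HL. All of these libraries lay below the control. IAA19 fell 2.66-fold in Heat-drought (-1.41 ± 0.14, adjusted p = 4.8e-12, limma), 2.20-fold in Drought (-1.14, adjusted p = 3.3e-09), 1.87-fold in Cold-HL (-0.90, adjusted p = 8.2e-07) and 1.68-fold in Cold (-0.75, adjusted p = 4.4e-05). These 4 calls held on the deposited scale, with differences of -0.68, -0.60, -0.39 and -0.41. In Humidity IAA19 went the other way, to -0.94, -0.71 and -0.82, above every control library, but the difference of 0.39 missed the threshold (adjusted p = 0.092) and passed it on the deposited scale (0.44).

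IAA6 was called lower in Cold (-0.41), Cold-HL (-0.51), Drought (-0.68) and Heat-drought (-0.87). On the deposited scale its values in the same stresses were -0.07, 0.00299, -0.14 and -0.14, and none was called. The library medians, which are subtracted, rose by 0.34, 0.51, 0.54 and 0.73 in the same order. Most of each centred fall of this weakly expressed gene is therefore the subtraction. With quantile normalization the IAA6 calls in Cold (-0.13) and Cold-HL (-0.09) were also lost.

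**Figure D2:**
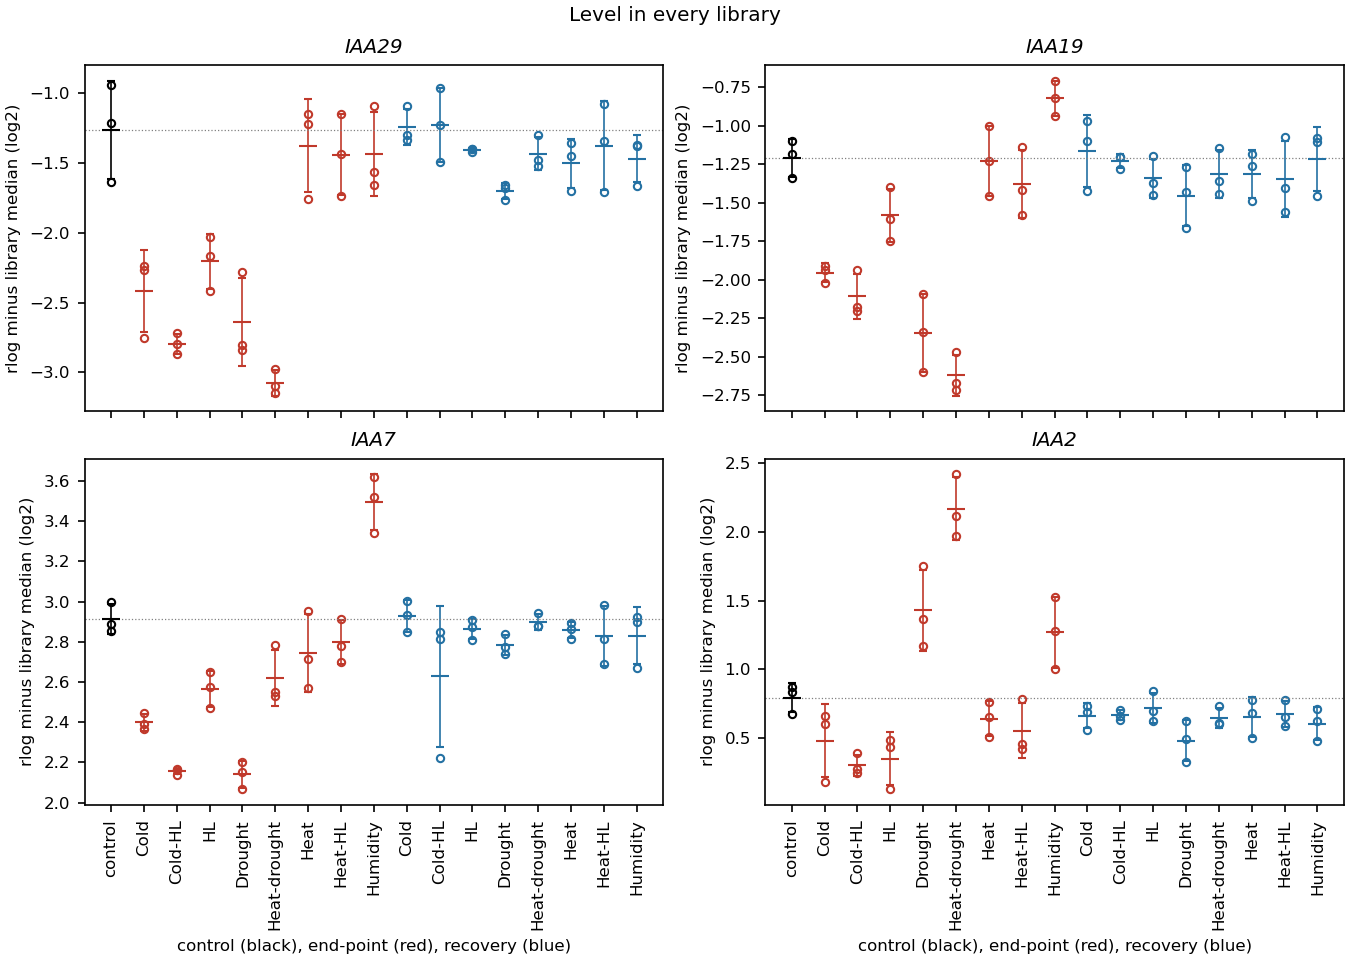
Level of IAA29, IAA19, IAA7 and IAA2 in each of the 51 libraries (open circles) as rlog minus the library median, with the group mean (dash) and SD (bars); control in black, end-points in red, recoveries in blue, and a dotted line at the control mean. IAA29 and IAA19 drop in cold and drought groups, IAA2 climbs to 2.17 in Heat-drought, and the recovery groups sit near the control.

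IAA7, IAA14 and IAA17 (AXR2, SLR and AXR3) are repressors whose stabilised mutant forms block root hairs, lateral roots or leaf growth. IAA7 read 2.85, 3.00 and 2.89 in the control, 2.45, 2.39 and 2.36 in Cold and 2.16, 2.16 and 2.14 in Cold-HL. Drought gave 2.07, 2.20 and 2.15, and Humidity 3.34, 3.52 and 3.62. The Humidity libraries were above and the other 9 below every control library. IAA7 rose 1.49-fold in Humidity (0.58 ± 0.11, adjusted p = 0.00036, limma), and fell 1.71-fold in Drought (-0.77, adjusted p = 4.3e-08), 1.69-fold in Cold-HL (-0.76) and 1.43-fold in Cold (-0.51). The Cold call was not made on the deposited scale (-0.17). In Heat-drought the IAA7 result depended on the scale in its direction: it was -0.29 (adjusted p = 0.012) relative to the median and 0.44 (called higher) as deposited. That lower call of IAA7 was lost without Heat-drought replicate 1 or control replicate 2.

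IAA14 was variable. Its control libraries read -0.31, -0.10 and 0.17, and those in HL -0.94, -0.90 and -0.90, with no overlap. It was called lower in Cold-HL (-0.92, adjusted p = 0.00025, limma), Heat-drought (-0.88), HL (-0.84, adjusted p = 0.030) and Cold (-0.60, adjusted p = 0.018). The HL call was lost in 5 of the 6 fits that left out 1 library of HL or of the control, all but the one without control replicate 1, with an adjusted p up to 0.23. The Cold call was lost without Cold replicate 1, Cold replicate 2 or control replicate 3. As deposited, IAA14 was called lower in Cold-HL (-0.41) and HL (-0.71) but not in Cold (-0.26) or Heat-drought (-0.14).

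IAA17 fell in Heat-drought (-0.96, adjusted p = 1.6e-08, limma) and Drought (-0.64, adjusted p = 4.5e-05), and neither was called as deposited (-0.22 and -0.10). In Heat its libraries read 0.12, 0.12 and 0.42 and in the control 0.59, 0.75 and 0.94, and the fall of 1.45-fold (-0.54, adjusted p = 0.039) was the only call of a member in that comparison. It was lost without Heat replicate 1, Heat replicate 2 or any one of the 3 control libraries (adjusted p up to 0.36). In Cold-HL the IAA17 difference was 0.28 and not called (adjusted p = 0.071), but it was called higher as deposited (0.79). In Cold it was likewise not called (-0.06) and called higher as deposited (0.28).

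IAA1, IAA2, IAA3 and IAA4 are known as fast auxin-induced transcripts; IAA3 (SHY2) also restrains auxin output where cytokinin acts. IAA2 was the member that rose most. Its level was 0.67, 0.83 and 0.87 in the control, 1.36, 1.17 and 1.75 in Drought, and 1.97, 2.12 and 2.42 in Heat-drought. Both stress groups were wholly above the control and did not overlap each other. IAA2 rose 2.60-fold in Heat-drought (1.38 ± 0.13, adjusted p = 2.4e-12, limma) and 1.56-fold in Drought (0.64 ± 0.13, adjusted p = 5.1e-05). On the deposited scale these were 2.11 and 1.17.

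In Humidity IAA2 stood at 1.00, 1.28 and 1.52, and it rose 1.39-fold (0.48 ± 0.13, adjusted p = 0.021, limma). That call was lost without Humidity replicate 3 or control replicate 1 (adjusted p up to 0.24), and in a fit of the 2 groups alone (adjusted p = 0.091). IAA2 fell in Cold-HL relative to the median (-0.49, adjusted p = 0.0017) and was 0.021 as deposited. In Cold (-0.31, adjusted p = 0.054) and HL (-0.44, adjusted p = 0.081) it missed the threshold; the Cold difference passed it in 11 of the fits that left out 1 library. Its order of levels over the 17 groups ran from Cold-HL end-point (0.30) to Heat-drought end-point (2.17), and neighbours in that order overlapped except at 2 steps, from the control to Humidity and from Drought to Heat-drought.

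IAA4 fell 2.23-fold in Heat-drought (-1.16 ± 0.12, adjusted p = 1.8e-11, limma) and 1.77-fold in Drought (-0.82, adjusted p = 1.3e-07), both also called as deposited (-0.42 and -0.29). Its level went from 1.18, 1.23 and 1.36 in the control to 0.39, -0.08 and -0.01 in Heat-drought. In Cold and Cold-HL IAA4 was not called (-0.01 and -0.22) but was called higher as deposited (0.33 and 0.29). IAA3 was called lower in HL, 1.56-fold (-0.64 ± 0.11, adjusted p = 0.0024), from 1.02, 1.12 and 1.26 to 0.40, 0.53 and 0.53. The HL call of IAA3 was lost without control replicate 3 (adjusted p = 0.054). In Heat-HL its libraries also lay below the control (-0.23, not called). As deposited, IAA3 was called higher in 5 stresses, namely Cold (0.31), Cold-HL (0.46), Drought (0.67), Heat-drought (0.68) and Humidity (0.33). IAA1 was called in no stress, with differences from -0.42 in HL to 0.20 in Drought, and as deposited it was called higher in Drought (0.73) and Heat-drought (0.54).

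For the order of levels over the 17 groups, neighbouring groups overlapped at all 16 steps for IAA1 and IAA17, and at 13 to 15 of 16 for the other members. The range of group means was widest for IAA2 (1.87), IAA29 (1.85) and IAA19 (1.80), and narrowest for IAA1 (0.62), against median within-group SDs of 0.13, 0.20, 0.16 and 0.18.

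Of the 10 genes, 6 lie in 3 neighbouring pairs that point away from each other, each with a single gene that does not code for protein between them. IAA2 and IAA7 lie on chr3:8180646-8197161, 12510 bases apart. IAA3 and IAA17 are on chr1:1128149-1138663, 6388 bases apart. IAA1 and IAA14 lie on chr4:8347822-8362033, 10732 bases apart. In Drought IAA2 rose and IAA7 fell (0.64 and -0.77), and on the deposited scale the opposite directions were also called (1.17 and -0.24). In Humidity both rose. IAA17 fell in Drought and Heat-drought where IAA3 was not called (0.13 and -0.05), and IAA3 fell in HL where IAA17 was -0.20. IAA14 was called lower in 4 stresses and IAA1 in none. A difference between the genes of a pair was not tested.

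**Figure D3:**
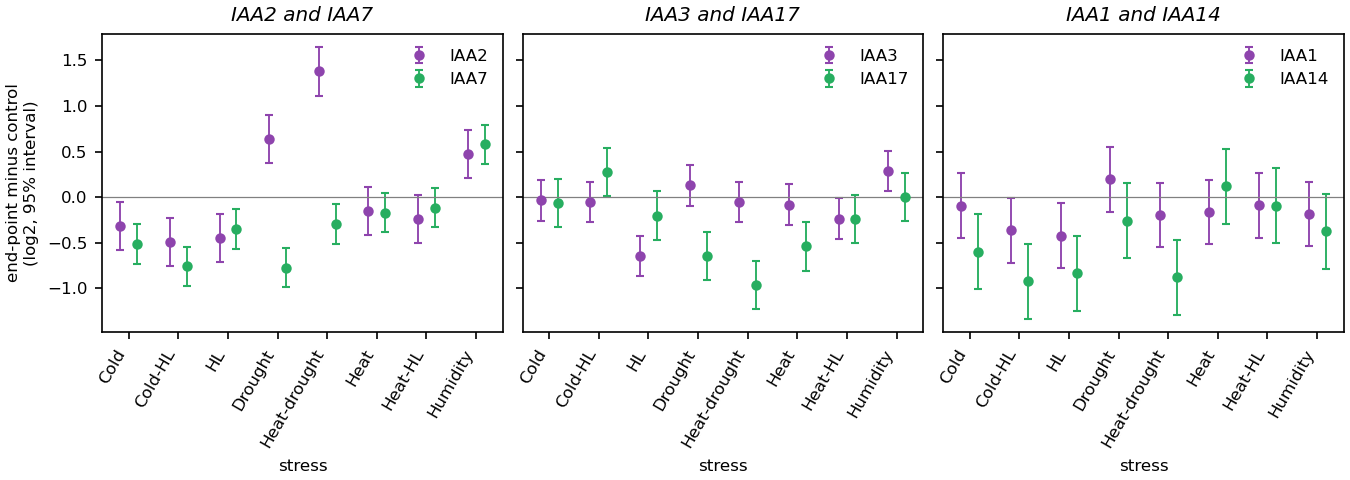
End-point minus control (log2 relative to the library median, with 95% intervals from limma) for the members of the 3 neighbouring pairs in each stress. IAA2 and IAA7 lie on opposite sides of 0 in Drought and Heat-drought and on the same side in Humidity.

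Combined stresses were tested against the sum of the single ones. For heat and drought, IAA2 exceeded that sum by 0.89 ± 0.19 (adjusted p = 0.0013, limma) and IAA7 by 0.65 ± 0.15 (adjusted p = 0.0031), where 7.97% of tested genes were called higher and 8.22% lower; as deposited both were called as well (1.00 and 0.76). The other 8 members were not called. Of these IAA14 had the largest difference (-0.74, adjusted p = 0.071), which passed without Heat-drought replicate 1 (-0.98, adjusted p = 0.010) or without Drought replicate 3 and was -0.51 without Heat-drought replicate 3. Without Heat-drought replicate 3, the library with the lowest correlations, IAA2 (0.77, adjusted p = 0.012) and IAA7 (0.57, adjusted p = 0.024) were still called, as were the 8 members called in Heat-drought against the control. Heat-drought was set against Drought in a comparison added after the data were seen. There IAA2 (0.74) and IAA7 (0.48) were higher (20.4% of tested genes), and IAA14 (-0.62), IAA29 (-0.44), IAA4 (-0.33) and IAA17 (-0.32) were lower (23.8%). Of these lower calls only IAA14 was also made on the deposited scale (-0.42), and the libraries of IAA14, IAA4 and IAA17 overlapped. Without Heat-drought replicate 3 none of the 4 lower calls was made: the values were -0.39 for IAA14, -0.42 for IAA29, -0.28 for IAA4 and -0.16 for IAA17, with adjusted p from 0.12 to 0.41.

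For heat and high light, 0 members were called in limma, where 0% of tested genes were called higher and 0.00526% lower. At an unadjusted p under 0.05, 5 members were higher (5.72% of tested genes) and 0 lower (4.14%), and IAA29 (0.88, adjusted p = 0.38) and IAA14 (0.62) had the largest values. So the members' fall in HL had no called counterpart in Heat-HL, and the difference between these 2 effects did not pass the test. Adding light to cold (Cold-HL minus Cold) gave 0 called members in limma, against 1.68% of genes higher and 1.63% lower. Unadjusted, 1 was higher (8.39% of tested genes) and 2 lower (9.71%), and IAA17 (0.34) was called as deposited (0.51). Drought minus Humidity, the opposite ends of water supply and likewise added after the data were seen, gave 6 members lower (41.8% of tested genes) and 0 higher in limma (25.0%; unadjusted, 1 higher, IAA1, and 4 higher as deposited). Its largest differences were in IAA19 (-1.52) and IAA7 (-1.35).

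After 3 days of recovery 0 of 80 pairs were called against the control in either direction, and 0% of all tested genes were called in any of the 8 recovery comparisons. At an unadjusted p under 0.05 in limma, 10 pairs were lower and 0 higher. Over all tested genes the share by stress ran from 0.463% to 8.22% lower and from 0.542% to 6.93% higher. Differences ran from -0.54 to 0.17 and 65 of 80 were negative, but all share the same 3 control libraries. The median difference of all tested genes lay between -0.047 and 0.0048 in these comparisons. The lowest adjusted p was 0.091, for IAA3 after Drought. That gene read 0.65, 0.45 and 0.67 against 1.02, 1.12 and 1.26 in the control (-0.54 ± 0.11), with no overlap.

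The recovery from Drought held more of the residual differences than any other recovery. The libraries of 7 of 10 members lay wholly below the control, against 18.2% of tested genes. In limma, 5 members had an unadjusted p under 0.05 on the lower side, against 8.07%. The median of these libraries was itself 0.12 above the control, and the members' median difference was -0.29 with centring and -0.17 as deposited. After IAA3 the largest were IAA29 (-0.44, adjusted p = 0.26) and IAA14 (-0.37). IAA3 passed the threshold there with quantile normalization (adjusted p = 0.044) and in a fit of the 2 groups alone (adjusted p = 0.0042). IAA7 after Cold-HL passed only without replicate 3 of that recovery (-0.38), which leaves the library that stands apart as 1 of 2.

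Set against their own end-points, most of the called pairs had moved back in recovery, as had most called genes in the whole table. Of the 80 pairs 27 were higher and 9 lower in recovery, against 17.8% and 13.5% of all pairs (15 and 19 as deposited). By stress, 5 members were higher and 0 lower after Cold (20.8% of tested genes were higher and 17.3% lower), and 7 higher and 1 lower after Cold-HL (32.2% and 27.1%). After Drought 6 were higher (39.3%) and 3 lower (24.6%), and after Heat-drought 7 higher (45.9%) and 1 lower (32.1%). After HL 2 were higher (0.473%) and 0 lower (1.37%), namely IAA3 and IAA29. After Humidity 0 were higher (2.98%) and 4 lower (4.57%). Neither Heat (0.405% higher and 0.352% lower) nor Heat-HL (0.0421% and 0.142%) gave a called member; at an unadjusted p under 0.05 in limma, Heat gave 1 higher (IAA17) and Heat-HL none. Of the 32 pairs called at the end-point, 30 were called in recovery in the opposite direction and were not called against the control. Over all tested genes the same held for 89.0% of 46903 called pairs. The remaining 2, IAA17 in Heat and IAA14 in HL, lay between, at -0.13 and -0.16 against the control. The members higher after Cold were IAA6, IAA7, IAA14, IAA19 and IAA29. After Cold-HL these 5 were joined by IAA1 and IAA2, and IAA17 was lower (-0.51). After Drought IAA4, IAA6, IAA7, IAA17, IAA19 and IAA29 were higher and IAA1, IAA2 and IAA3 lower (-0.51, -0.95 and -0.67). After Heat-drought IAA4, IAA6, IAA7, IAA14, IAA17, IAA19 and IAA29 were higher. As deposited, 5 of these called differences changed sign, of which IAA7 after Heat-drought was called lower (-0.44) and the rest were not called. IAA29 rose back by 1.64 after Heat-drought, 1.57 after Cold-HL, 1.18 after Cold, 0.94 after Drought and 0.80 after HL. IAA2 fell by 1.52 after Heat-drought, by 0.95 after Drought and by 0.67 after Humidity, and IAA7 fell by 0.66 after Humidity. A recovery that misses the threshold is not shown to equal the control.

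Across the 17 group means, IAA19 was most like IAA6 (Pearson r 0.96) and IAA29 (0.94), and IAA6 and IAA29 had r 0.93. IAA2 ran against IAA17 (r -0.71) and IAA4 (-0.69). These are descriptions over groups that share libraries and the centring. On the deposited scale the group means of IAA6 lay only between 3.75 and 4.11. Its centred profile is therefore largely that of the subtracted library medians, and its r values say little on a shared response. Outside the family, the closest gene among those tested was HAT1 for IAA19 (r 0.99), an HD-Zip transcription factor of the shade and auxin response, and SAUR22 for IAA29 (0.98), a small auxin-induced gene of cell expansion. IAA6 was closest to ACS11 (0.99), an ethylene synthesis gene, with the limit just given for IAA6. IAA2 was closest to PLPB (0.98), IAA4 to scpl25 (0.98), IAA7 to AT3G27770 (0.98), IAA17 to FK (0.95), a sterol synthesis enzyme, and IAA14 to AT1G76610 (0.95). IAA1 (ASG5, 0.84) and IAA3 (AT3G54366, 0.82) had no profile as close. The mean profile of the 10 was most like that of AT1G57980 (0.95).

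Other genes of the auxin pathway moved with these members to different degrees. SAUR genes, the fast auxin-induced genes of cell expansion, were called lower in 10 of 10 tested (11 listed) in each of Cold, Cold-HL, Drought and Heat-drought, and 4 of 10 in HL. As deposited the lower counts were 6, 6, 9, 10 and 2. Over all tested genes 21.7%, 29.4%, 42.2%, 46.5% and 0.689% were called lower relative to the library median. SAUR16 fell by 2.97 in Heat-drought and by 2.39 in Drought, SAUR23 by 1.09 in Cold-HL and SAUR22 by 0.85 in Cold. Members of the SAUR19 to SAUR24 cluster are near-identical, so reads may be split between them. Of 13 tested other Aux/IAA genes (19 listed), 3 fell and 0 rose in Cold, 5 and 0 in Cold-HL, 3 and 3 in Drought, 6 and 4 in Heat-drought and 1 and 0 in HL. These shares of lower calls are near those of all tested genes in Cold and Heat-drought, given above. As deposited, 1 was lower and 8 higher in Cold, 1 and 9 in Cold-HL, 0 and 10 in Drought, 1 and 10 in Heat-drought, and 0 and 0 in HL. IAA16 fell in Cold (-1.03), Cold-HL (-1.03) and HL (-0.50, not called as deposited) and rose in Humidity (0.53). IAA28 rose in Drought (1.00) and Heat-drought (1.11). IAA12 fell in Drought (-0.54, and -0.01 as deposited) and IAA27 in Heat-drought (-1.12).

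The counts of upstream genes stand beside large shares over all tested genes. These were 42.2% lower and 25.3% higher in Drought, and 46.5% and 32.2% in Heat-drought. As deposited the shares were 9.57% and 61.4%, and 13.2% and 66.7%. Auxin carriers were lower in 7 of 8 in both Drought and Heat-drought (3 and 7 as deposited), led by AUX1, the auxin influx carrier (-1.62 and -2.33). Of 7 synthesis genes tested (11 listed), 5 fell in Drought and 6 in Heat-drought (3 in each as deposited), including the tryptophan aminotransferase TAA1 (-1.61 in Heat-drought). The list of GH3 genes, which couple auxin to amino acids, also held the auxin oxidation gene DAO1. Of its 7 tested genes, 5 were lower in Drought and in Heat-drought (2 and 1 as deposited), but GH3.3 rose (0.76 and 2.24). The receptor and corepressor list had members called each way, with AFB1 lower (-1.02) and TPR4 higher (0.82) in Heat-drought. Of 11 genes, 6 were lower and 3 higher there (1 and 10 as deposited). Relative to the library median these shares are near those of all tested genes. ARFs were likewise mixed: in Drought 3 of 12 were lower and 4 higher (0 and 11 as deposited), with ARF3 lower (-0.38, not called as deposited) and ARF2 higher (0.71). Among PIFs, which drive IAA19 and IAA29 in warm or shaded seedlings, PIF4 fell in Cold (-0.46, not called as deposited) and Cold-HL (-1.15). PIF3 rose in Drought (1.91) and Heat-drought (2.23), while PIF1 fell in Drought (-0.46) and PIF5 in Heat-drought (-0.86), neither called as deposited. PIF7 fell in Heat (-0.36, not called as deposited) and Heat-HL (-0.45), and the light receptor gene PHYB rose in Cold-HL (0.35). Of the 6 genes of this list, 4 were lower and 0 higher in Cold, 5 and 1 in Cold-HL, 2 and 2 in Drought and 3 and 2 in Heat-drought. As deposited these were 0 and 2, 1 and 2, 0 and 4, and 0 and 3. Over all tested genes 21.7% were lower and 18.3% higher in Cold (2.17% and 54.2% as deposited). In Cold-HL the shares were 29.4% and 23.3% (2.53% and 68.2% as deposited).

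**Figure D4:**
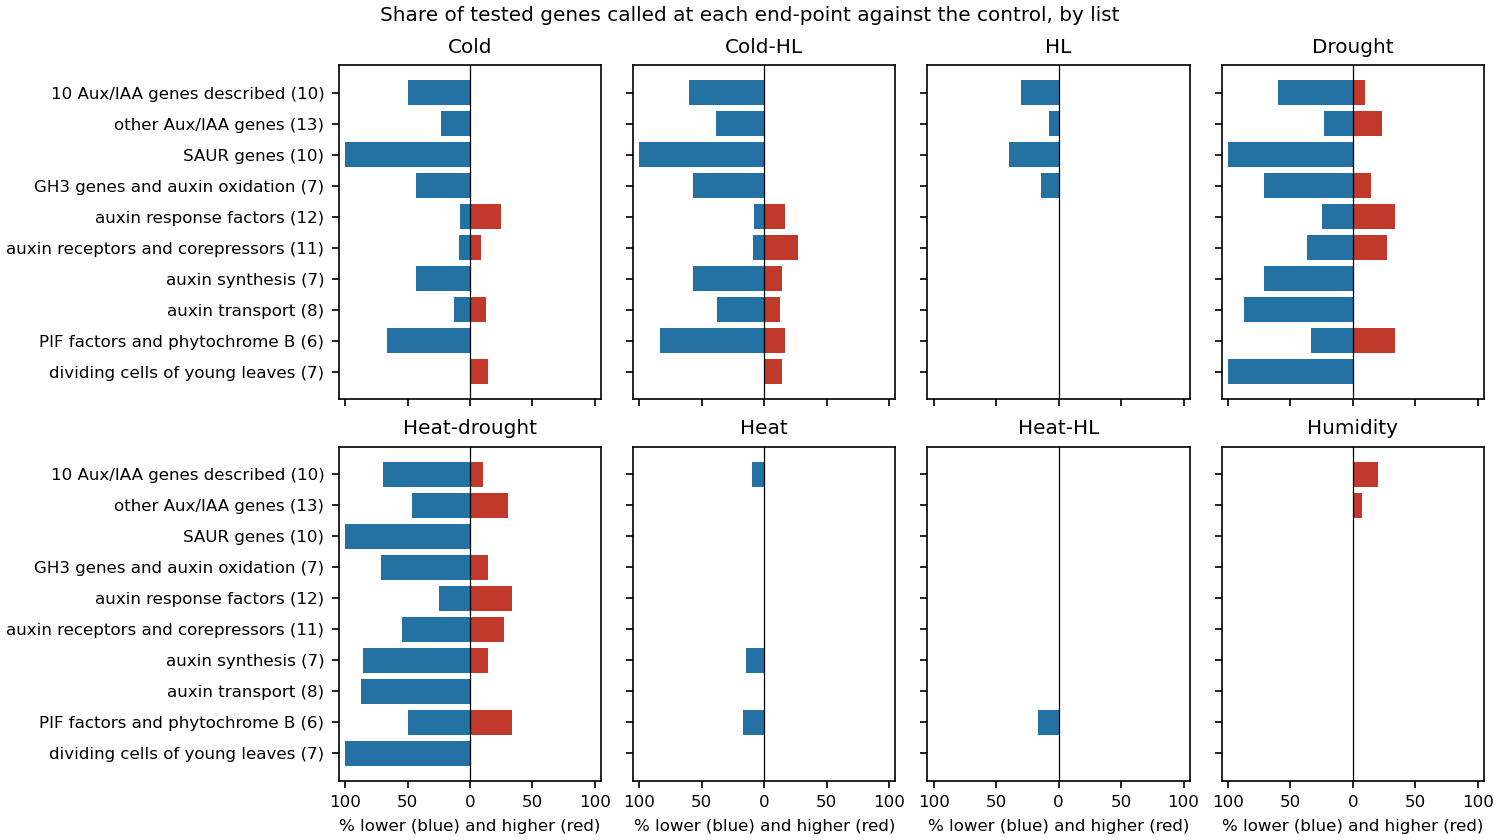
Share of the tested genes of each list (number in brackets) called lower (blue, to the left) or higher (red, to the right) at the end-point of each stress against the control, in percent, relative to the library median. The SAUR genes reach 100% lower in Cold, Cold-HL, Drought and Heat-drought, and dividing-cell markers reach it in Drought and Heat-drought alone.

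Markers of several cell types fell in the drought groups, whereas dividing-cell markers did not fall in the cold groups. In dividing cells of young leaves, 7 of 7 markers were called lower in Drought and in Heat-drought: their mean level ran from -0.98 to -0.20 and from -1.58 to -1.20 over the libraries, against 0.52 to 0.64 in the control. Guard cell markers were lower in 6 of 6 in both, and mesophyll markers in 4 of 5 and 5 of 5. All marker counts in this paragraph are relative to the library median, and counts on the deposited scale are not given for them. That median rose by 0.54 in Drought, 0.73 in Heat-drought, 0.34 in Cold and 0.51 in Cold-HL. Over all tested genes 42.2% were lower in Drought and 46.5% in Heat-drought. The phloem marker SUC2 was higher in Drought (0.72) and Heat-drought (0.91), where 25.3% and 32.2% of tested genes were higher. SEOR1, another phloem marker, was called lower in Heat-drought (-0.48) but was higher as deposited (0.26). The mean level of all 3 phloem markers moved less than SUC2. It ran from 2.16 to 2.35 in Drought and from 2.18 to 2.35 in Heat-drought, against 2.06 to 2.20 in the control. The part of these shifts in the Aux/IAA results was not tested, and in leaf RNA fewer cells of a type and less transcript per cell cannot be told apart. In Cold and Cold-HL, where IAA29 and IAA19 also fell, dividing-cell markers were at 0.72 to 0.80 and 0.64 to 0.81, 1 of 7 was called higher in each and 0 were called lower. Guard cell markers were lower in 2 of 6 in Cold and 2 of 6 in Cold-HL, led by KAT1 (-0.63 and -0.80). Over all tested genes 21.7% were lower and 18.3% higher in Cold, and 29.4% and 23.3% in Cold-HL. The phloem marker SEOR1 was lower in both (-0.38 and -0.45), and not as deposited. The part of these shifts was likewise not tested.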

How the data were processed

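The file deposited by the authors gives rlog values (regularized log counts) on a log2 scale. Per the submitters' processing notes, Trimmomatic, STAR, featureCounts, DESeq2 and the build TAIR10 were used; versions, strand setting and read counts are not given in the sources used here. Names matched 51 columns to samples; 6 columns matched no label and were not used, so the group combining heat, drought and high light was not analysed here. The 19010 genes whose mean rlog reached 3 were tested on values minus the library median in R 4.3.3 with limma 3.58.1, with 1 mean per group over all libraries, an intensity trend, robust variances and two-sided Benjamini-Hochberg adjusted p at 0.05. The procedure was tested on simulated data. Tables and figures used Python 3.11.15 with pandas 2.3.3, numpy 2.4.6 and matplotlib 3.10.9, and the R package data.table in version 1.17.8. Members, gene lists and comparisons were chosen with earlier results of these data known. The rule named all 10 members in every comparison, of which the text gives the called ones and, as ranges or counts, most others; from each other list it named the called gene with the largest difference each way, of which the text gives a part; by likeness, the closest genes outside the family by r over group means. Alternatives were the deposited scale, quantile normalization, filters, variance options, a replicate block, fits on 2 groups, and leaving out each library.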

Additional observations from a re-analysis of the deposited data

Results flagged for a closer look

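IAA2 and IAA7 are set out here because the effect of heat on them differed between watered and droughted plants, by the interaction term of limma. For IAA2 the heat effect was -0.15 in watered plants, which was not called, and 0.74 in droughted plants, a difference of 0.89 (adjusted p = 0.0013). For IAA7 the heat effect was -0.17 in watered plants, likewise not called, and 0.48 in droughted plants, a difference of 0.65 (adjusted p = 0.0031). The libraries of Heat-drought lay above those of Drought for both genes. Groups of 3 libraries are too small for a test for single outlying samples.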

How the results depend on the processing

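As deposited, without centring on the library median, the end-point calls were 17 lower and 17 higher (28 and 4 with centring), and the calls between recovery and end-point 15 higher and 19 lower (27 and 9); the rise of the library median in the cold and drought groups makes this difference by construction. On that scale 3 called end-point differences changed sign, to 0.021 for IAA2 and 0.00299 for IAA6 in Cold-HL and to 0.44 for IAA7 in Heat-drought. So did 5 called differences between recovery and end-point: IAA1 (-0.06), IAA2 (-0.12) and IAA7 (-0.02) after Cold-HL, IAA17 after Drought (-0.04) and IAA7 after Heat-drought (-0.44). Calls lower after recovery were 0, but 1 with quantile normalization and 1 in a fit of the 2 groups alone (IAA3 after Drought in both), and 0 to 1 when a library was left out. Leaving out each library in turn gave 23 to 29 lower and 3 to 5 higher calls at the end-point, 25 to 29 higher and 8 to 9 lower in recovery than at the end-point, and 2 to 3 in the combined stresses. Without replicate 2 of the Cold-HL recovery, the library that stands apart, every called pair was still called, and 3 pairs were added: IAA7 lower in HL (-0.35, adjusted p = 0.017 in place of 0.091), and IAA7 (0.30) and IAA14 (0.67) higher in the HL recovery than at its end-point. The replicate numbers were not taken as pairs, because not every same-numbered pair of libraries had a correlation above 0.1, which is a strict rule. Of 408 same-numbered pairs, 164 had deviations correlated above 0.1 (median r 0.054, against -0.014 for different numbers). Most libraries, 37 of 51, were closest to their own number out of 3, more than even odds between the numbers would give. Libraries may thus share something by number that the labels do not name. With the replicate block, end-point calls were 30 lower and 5 higher (IAA2 in Cold and HL and IAA19 in Humidity were added), returns 27 and 10, recovery calls 0 and combined calls 2. The other filters and variance options kept all these counts within 1.5 times. Depth is unknown, and the control comes from the recovery setup.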
